A study of Saccharomyces cerevisiae with 5 samples.

Results

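The genes described here encode the translation initiation and termination factors of budding yeast, S. cerevisiae. They were chosen by name from the gene names that the array's design carries, and all 34 names were found among the 6256 genes measured. The members comprise the subunits of the initiation factors eIF1 to eIF5, the poly(A)-binding protein, 2 proteins that bind the cap-binding factor, 2 RNA helicases, both release factors and the kinase of eIF2. They also include GCD10 and GCD14, whose products form a tRNA methyltransferase. Total RNA from 5 samples of 1 strain was labelled with Cy3, mixed with Cy5-labelled genomic DNA and hybridized to 5 two-colour Agilent arrays, with no dye swap. The strain is named Sigma 1287b, L5366 in the labels of both channels, and the paper writes Sigma1278b. Cells were taken in mid-log growth at 30 °C, in a medium that the paper calls rich, and no treated or mutant group was included. The paper's methods describe biological replicates of RNA, but fewer per species than the 5 arrays here. The labels do not say whether the 5 RNA samples came from separate cultures, so the SD between arrays may be only technical.

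Initiation in eukaryotes begins when the GTPase eIF2 brings the initiator tRNA to the small ribosomal subunit, helped by eIF1, eIF1A, eIF3 and eIF5. The cap-binding factor eIF4E, the scaffold eIF4G and the helicase eIF4A bring in the mRNA, the ribosome scans for the start codon, and eIF5B joins the large subunit. The exchange factor eIF2B reloads eIF2 with GTP after each round, a step that the kinase Gcn2 blocks when amino acids are scarce. At a stop codon, the release factors eRF1 and eRF3 free the finished protein.

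A level is log2 of the background-subtracted Cy3 signal over the Cy5 signal of the same probe, with arrays quantile normalized and the median gene set near 0. A level of 1 thus means 2-fold above the median gene. Dividing by genomic DNA is meant to remove differences between probes, so that genes can be compared with each other, and it takes each gene to be present at the same copy number, which was not tested here. Each gene had 1 probe printed as 7 spots. Every array held 43792 gene spots, of which 1.41% to 3.81% carried an outlier flag and were left out, and 0 were saturated. The median gene had a Cy3 signal of 1425 to 2038 and a Cy5 signal of 11396 to 13043 per array. The arrays correlated at Pearson's r of 0.992 to 0.998 over genes in 10 pairs, as a description. All 6 a-specific, 4 alpha-specific, 7 haploid, 5 meiosis and 4 stationary phase or stress marker genes lay below the median gene on all 5 arrays, at mean levels of -4.44 to -1.09. Of all genes, 47.5% did so. In these lists, 3, 2, 3, 3 and 2 genes had fewer than 4 RNA spots well above background on at least 1 array, so their levels are near the floor. Levels between genes depended on how the signals were processed, and for the 21 comparisons tested, a direction that turned under another processing is given beside its result.

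By the level defined above, the translation factor genes were mostly among the abundant transcripts of the cell. Fewer members were above the median gene under loess, which removes any trend of the ratio with brightness. Loess therefore cannot decide whether genes with a bright RNA signal are abundant. Of the 34 genes, 32 lay above the median gene on all 5 arrays, against 47.2% of all genes, and DBP1 alone lay below it on all 5, against 47.5% of all genes. GCN2 lay on either side of it. Under loess within arrays, an alternative described further on, 18 of the 34 lay above the median gene on all arrays. Above the 75th percentile of genes on all arrays were 26 members, where 23.2% of all genes lay, though with loess 7 were, and with the scanner software's processed signals 13. The shares of all genes given here are for the level defined above, and those under loess or processed signals are not given. Above the 90th percentile on all arrays were 20 members, where 9.3% of all genes lay. Under loess the members with a mean above the 90th percentile were CDC33, NIP1, TIF5, SUI3, CAF20 and GCD14. With processed signals they were the same genes and also TIF3 and SUP35. The median level of the members was 2.79, with quartiles of 1.70 and 3.29, and that of all genes was near 0. The level is relative to other genes of the same array, so it does not give molecules per cell. The SD over 5 arrays had a median of 0.067 for members, from 0.019 for GCD14 to 0.150 for TIF2, and 0.080 for all genes.

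**Figure D1:**
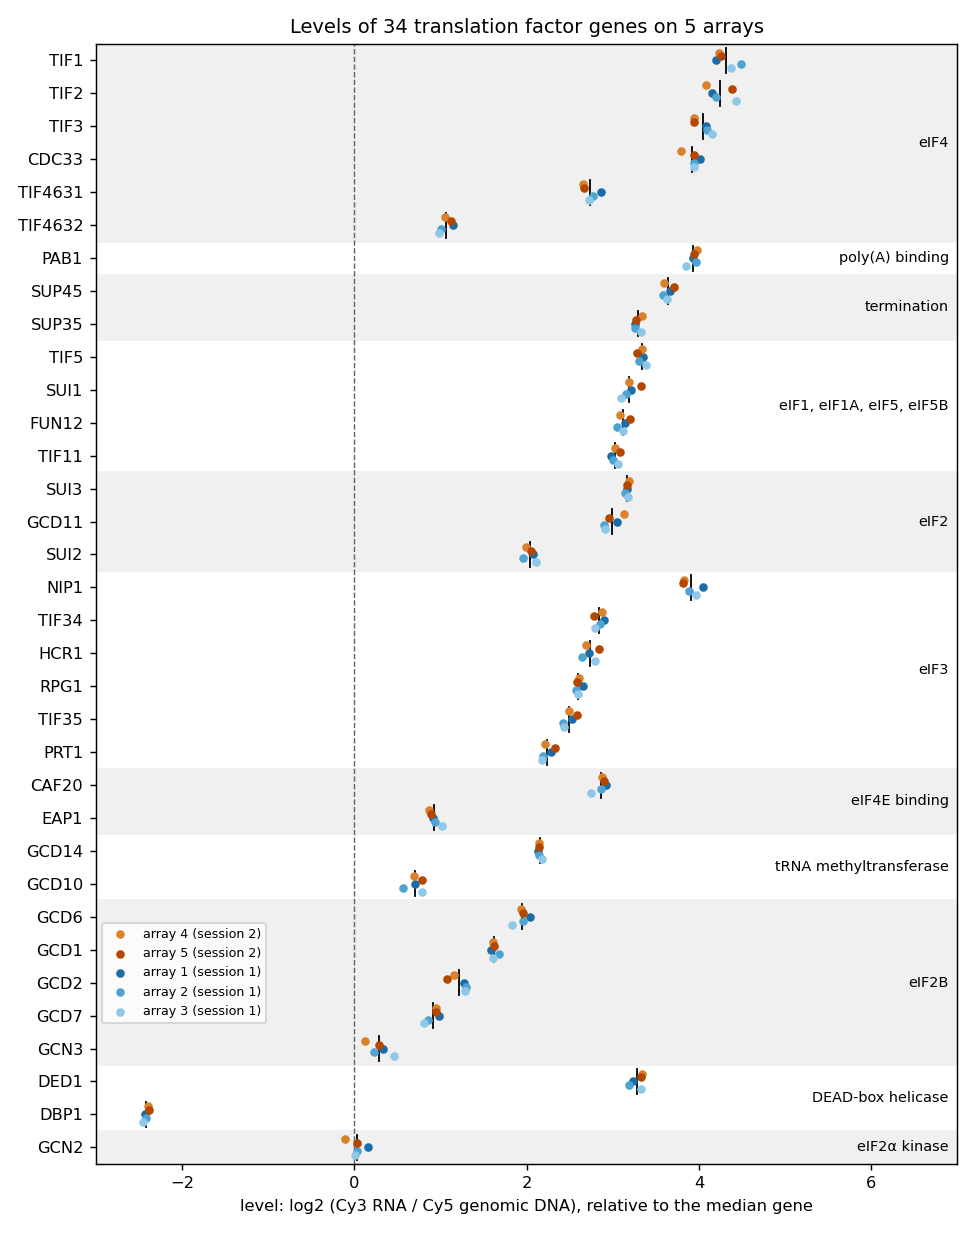
Level of each of the 34 genes (x axis, log2 of Cy3 over Cy5 relative to the median gene) on each of 5 arrays (points, coloured by array and scan session), by functional group from the highest group median to the lowest. The vertical bar is the mean, and the dashed line at 0 is the median gene. The eIF4 genes TIF2 and TIF1 lie at the top near 4.3, and DBP1 lies alone at -2.41.

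The signals behind these levels were well measured in both channels. For all 34 members, the scanner software marked all 7 spots as clearly above background in both channels of all 5 arrays, which held for 5393 of the 6256 genes. Of 1190 member spots, 25 (2.10%) carried an outlier flag. The SD between spots of a probe had a median of 0.111 over members and 0.117 over all genes on the log2 scale. The genomic DNA signal itself varied between members by 6.41-fold, with mean Cy5 of 6506 for GCD14 and 41724 for TIF2, while the RNA signal varied by 299-fold. Of the 34 members, 26 had a Cy5 signal above that of the median gene, and the median mean Cy5 was 14918 over members and 12077 over all genes. Across the 34 genes, the level and mean Cy5 had a Spearman's rho of 0.008 and across all genes of -0.034, as descriptions. The points share probes and arrays, and genes are not independent replicates.

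**Figure D2:**
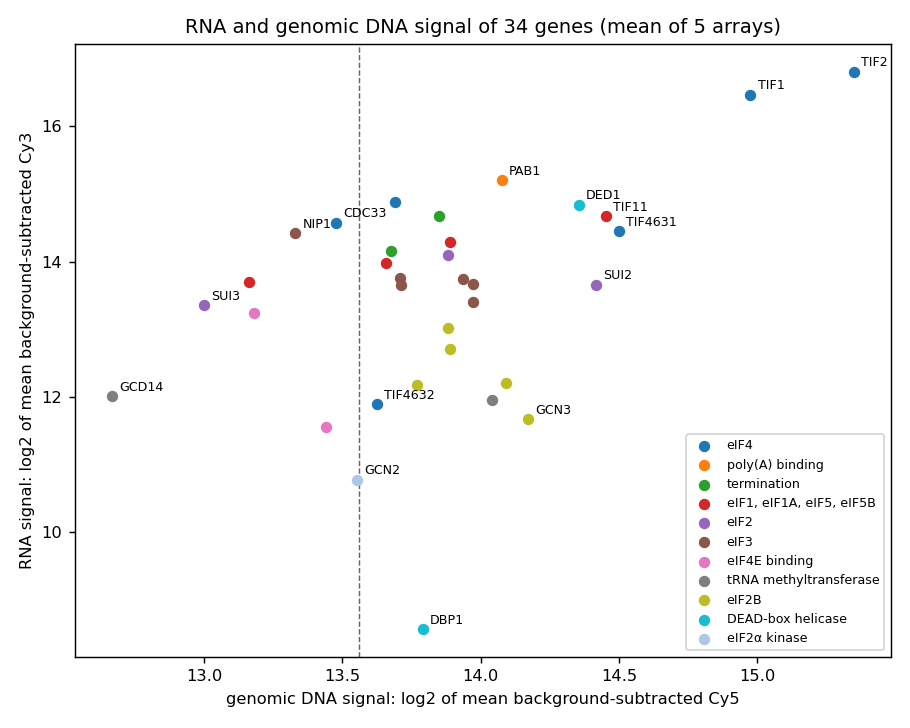
Mean background-subtracted Cy3 signal (RNA, y axis) against mean background-subtracted Cy5 signal (genomic DNA, x axis) of the 34 genes over 5 arrays, both as log2, coloured by functional group. The dashed line is the median Cy5 of all genes, 12077, and TIF2 and TIF1 stand at the far right with the highest signals in both channels.

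The eIF4 genes formed the highest group by mean, with a median over 6 genes of 3.98 ± 0.08 (SD, n = 5 arrays). PAB1, a group of 1 gene at 3.93 ± 0.05, was above that median on array 4 (3.98 against 3.86) and array 5 (3.95 against 3.94). With loess and with processed signals the eIF4 median was below that of eIF3. TIF1 and TIF2 are duplicated genes that both encode eIF4A, the RNA helicase of the cap-binding complex. TIF2 had levels of 4.15, 4.20, 4.43, 4.08 and 4.38 on arrays 1 to 5, and TIF1 had 4.20, 4.49, 4.37, 4.24 and 4.26. The ranges of both genes overlapped, and TIF2 was above TIF1 on arrays 3 and 5 only. The mean levels were 4.25 ± 0.15 for TIF2 and 4.31 ± 0.12 for TIF1, which are 19.0-fold and 19.8-fold the median gene. TIF2 minus TIF1 was -0.06 ± 0.17 (n = 5, exact two-sided sign-flip test p = 0.50, adjusted p = 0.50), smaller than the spread between arrays. It was -0.45 ± 0.11 with loess, -0.16 ± 0.07 with processed signals and -0.21 ± 0.15 with normexp, each with TIF2 lower on all 5 arrays (exact sign-flip p = 0.0625). Normexp is a fitted background, whose Cy5 fit is set beside negative controls further on. TIF2 made up 48.9% ± 2.87 of the sum of both on the linear scale. From the RNA signal alone the difference was 0.30 ± 0.15, with TIF2 higher on all 5 arrays. Both probes were also near the top in genomic DNA, with a mean Cy5 at the 98.9th percentile of genes for TIF2 and the 97.8th for TIF1. The coding sequences of the pair are closely alike, and whether a probe also bound the other copy was not tested.

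TIF4631 and TIF4632, which encode the 2 forms of the scaffold eIF4G, stood apart. TIF4632 had levels of 1.14, 1.01, 0.99, 1.05 and 1.12 on arrays 1 to 5. TIF4631 had 2.86, 2.77, 2.72, 2.65 and 2.67, so every array of TIF4631 was above every array of TIF4632. The difference of TIF4632 minus TIF4631 was -1.67 ± 0.09, which makes TIF4632 3.19-fold lower (5 of 5 arrays, exact sign-flip p = 0.0625, adjusted p = 0.0656). With 5 arrays this test cannot give a p below 0.0625, so none of the 21 comparisons could pass 0.05. TIF4632 made up 23.9% ± 1.20 of the sum of both genes. The direction turned under 2 other ways of processing, to a difference of 0.76 with loess within arrays and 0.66 with Agilent's processed signals, where TIF4632 made up 62.9% and 61.2%. In the RNA signal alone the difference was -2.54. In genomic DNA signal TIF4632 had a mean Cy5 of 12621 and TIF4631 had 23184, at the 94.8th percentile of genes.

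The remaining eIF4 genes lay close to eIF4A. CDC33 encodes eIF4E, which binds the mRNA cap. Its levels were 4.01, 3.94, 3.94, 3.79 and 3.94 on arrays 1 to 5 (mean 3.92 ± 0.08), lowest on array 4. TIF3, which encodes the RNA-binding factor eIF4B, had 4.08, 4.10, 4.15, 3.94 and 3.94, a mean of 4.04 ± 0.10. CDC33 was 1.19 ± 0.06 above TIF4631, a 2.28-fold difference seen on 5 of 5 arrays. The direction of the mean held under all 18 alternatives run for it (0.15 to 1.95). In RNA signal alone it was 0.15 ± 0.13 (exact sign-flip p = 0.125), with arrays on both sides of 0. Mean Cy5 was 11397 for CDC33 and 23184 for TIF4631. TIF2 was 0.32 ± 0.14 above CDC33 on 5 of 5 arrays, but the direction turned to -0.88 with a normexp background, -2.03 with processed signals and -2.07 with loess. On the linear scale, the sum of TIF1 and TIF2 was 2.57 ± 0.20 times CDC33 and 4.46 ± 0.43 times the sum of the eIF4G genes. Those ratios were 0.565 and 0.709 under loess, 0.518 and 0.763 with processed signals, and 8.42 and 7.97 from RNA signal alone.

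PAB1, the poly(A)-binding protein that contacts eIF4G at the other end of the mRNA, had levels of 3.93, 3.96, 3.84, 3.98 and 3.95. It was the fourth of the 34 genes in mean level, 3.93 ± 0.05, or 15.3-fold the median gene. Its excess over TIF4631 was 1.20 ± 0.11 (2.29-fold, 5 of 5 arrays) and kept its direction under all alternatives run. The order of TIF3, PAB1, CDC33 and NIP1, from 4.04 to 3.91, changed between arrays, and no neighbouring pair of these 4 kept 1 order on all 5.

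The 2 proteins known to bind eIF4E and compete with eIF4G differed from each other. CAF20 had levels of 2.93, 2.86, 2.74, 2.87 and 2.90, and EAP1 had 0.91, 0.94, 1.02, 0.87 and 0.89. The groups of arrays did not overlap, and CAF20 minus EAP1 was 1.93 ± 0.12, a 3.82-fold difference on 5 of 5 arrays (exact sign-flip p = 0.0625, adjusted p = 0.0656). CAF20 stayed above EAP1 under every alternative run, from 0.91 with loess to 2.02. Set against its partner, CAF20 was 1.07 ± 0.10 below CDC33, or 0.478 times its level, on 5 of 5 arrays, while loess gave 0.12 and processed signals 0.075 in the other direction.

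**Figure D3:**
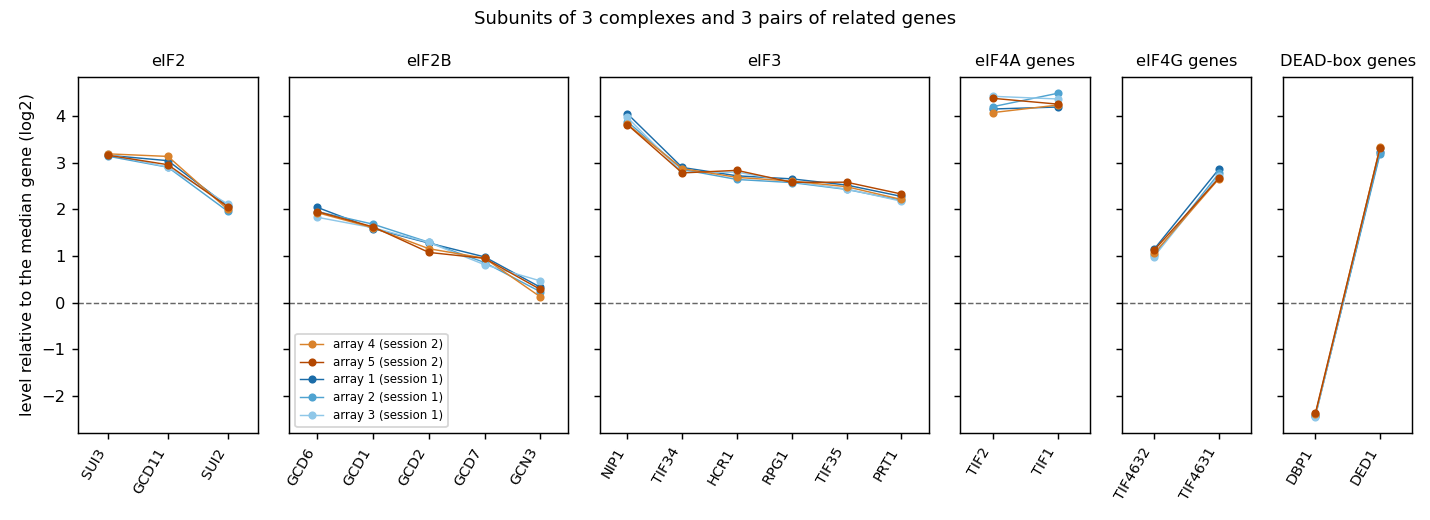
Levels (y axis, log2 relative to the median gene) of the subunits of eIF2, eIF2B and eIF3 and of the gene pairs for eIF4A, eIF4G and the DEAD-box helicases, with 1 line per array. The lines of 5 arrays run close together in each panel, and for eIF4A TIF2 and TIF1 cross between 4.08 and 4.49.

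The 3 subunits of eIF2, which carries the initiator tRNA, did not share 1 level. SUI3, the beta subunit, had levels of 3.16, 3.14, 3.18, 3.19 and 3.16, with an SD of 0.02. GCD11, the gamma subunit that binds GTP and tRNA, had 3.04, 2.90, 2.91, 3.14 and 2.96. SUI2, the alpha subunit whose phosphorylation blocks eIF2B, had 2.07, 1.96, 2.11, 1.998 and 2.06. SUI2 was the lowest on every array and SUI3 the highest, so the order held on 5 of 5 arrays. The distance from SUI3 to SUI2 was 1.13 ± 0.06, or 2.18-fold, larger than the median SD of a subunit over arrays, 0.06. That distance was 1.91 with normexp, 2.36 with loess and 2.48 with processed signals. In RNA signal alone the highest and lowest subunits were 0.71 apart, and by mean these were GCD11 (3.38) and SUI3 (2.67). In genomic DNA signal the order was the reverse, with a mean Cy5 of 8191 for SUI3 and 21856 for SUI2, and in the RNA signal alone SUI2 (2.97) was above SUI3 (2.67).

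The 5 subunits of eIF2B lay below those of their substrate eIF2 on each array, but with loess and with processed signals SUI2 was below 4 of the 5. With normexp SUI2 (1.43) was below GCD6 (1.80) and GCD1 (1.48). GCD6, the catalytic epsilon subunit, was the highest with 2.04, 1.95, 1.83, 1.93 and 1.95. GCD1, the gamma subunit, followed at 1.59, 1.68, 1.61, 1.61 and 1.62. These 2 form the catalytic part of the factor, and their ranges did not overlap. In the regulatory part, which senses phosphorylated eIF2, GCD2 (delta) averaged 1.22 ± 0.10 and GCD7 (beta) 0.91 ± 0.07. GCN3, the alpha subunit, had 0.33, 0.23, 0.46, 0.12 and 0.28, the lowest of the complex on every array. The order GCD6, GCD1, GCD2, GCD7, GCN3 held on 5 of 5 arrays, and the distance from first to last was 1.66 ± 0.17, or 3.15-fold. With loess and with processed signals GCD2 (0.02 and 0.23) was above GCD1 (-0.06 and 0.18), in RNA signal alone GCD7 (1.51) was above GCD2 (1.49), and the distance between the highest and lowest subunit was 0.90 with loess. GCN3 fell below the median gene with loess (-0.82), processed signals (-0.63) and normexp (-0.090), and GCD7 did so with loess (-0.55) and processed signals (-0.22).

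By group medians, eIF2 had 3.04, 2.90, 2.91, 3.14 and 2.96 on arrays 1 to 5, and eIF2B had 1.28, 1.29, 1.29, 1.16 and 1.08. The difference of eIF2 minus eIF2B was 1.77 ± 0.16, or 3.41-fold, with every array of eIF2 above every array of eIF2B (exact sign-flip p = 0.0625, adjusted p = 0.0656). It shrank to 0.42 under loess and 0.66 with processed signals and kept its direction under all alternatives run. SUI2, the lowest subunit of eIF2, was above GCD6, the highest of eIF2B, on each array, though by only 0.10 ± 0.11. That order turned with loess (-0.70 for SUI2 and 0.04 for GCD6), with processed signals (-0.44 and 0.51) and with normexp (1.43 and 1.80). GCN2, the kinase that phosphorylates the product of SUI2, had levels of 0.16, 0.04, 0.01, -0.11 and 0.03, near the median gene. GCN2 minus SUI2 was -2.01 ± 0.09, which makes GCN2 0.248 times SUI2, while loess gave 0.65 and processed signals 0.38.

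The 6 genes of eIF3, the scaffold that binds the small ribosomal subunit, held 1 high member and 5 closely spaced ones. NIP1, the c subunit, had 4.05, 3.88, 3.97, 3.82 and 3.82. It was above every other eIF3 gene on every array and, at a mean of 3.91 ± 0.10, near PAB1 and CDC33. TIF34 (subunit i) averaged 2.84 ± 0.05, HCR1 (j) 2.74 ± 0.08, RPG1 (a) 2.60 ± 0.03, TIF35 (g) 2.49 ± 0.06 and PRT1 (b) 2.24 ± 0.06. PRT1 was the lowest on every array, and the distance from NIP1 to PRT1 was 1.67 ± 0.13, or 3.19-fold. In RNA signal alone the highest and lowest eIF3 genes were 1.002 apart. The full order held on 3 of 5 arrays. HCR1, whose product is loosely bound in yeast eIF3, was 0.13 ± 0.09 above RPG1 on 5 of 5 arrays, but 0.087 below it in RNA signal alone. NIP1 had the lowest genomic DNA signal of the 6, a mean Cy5 of 10299, and was also the highest of them in RNA signal alone, at 3.73.

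The group median of eIF3 was 2.69, 2.61, 2.69, 2.65 and 2.68 on arrays 1 to 5. Against eIF2B the difference was 1.45 ± 0.11 (2.72-fold), and all 6 eIF3 genes were above all 5 eIF2B genes on every array. With loess PRT1 (-0.02) was below GCD6 (0.04) and GCD2 (0.02), and with processed signals PRT1 (0.32) and TIF35 (0.45) were below GCD6 (0.51). The group difference was in the same direction under all alternatives run, at 0.41 with loess and 1.44 in RNA signal alone. Against eIF2 the difference was -0.33 ± 0.11, with eIF3 at 0.798 times eIF2 on 5 of 5 arrays, but it was 0.054 in RNA signal alone and -0.01 with loess. The eIF4 median was above eIF3 by 1.32 ± 0.08 (2.50-fold) and above eIF2B by 2.76 ± 0.06 (6.80-fold) on 5 of 5 arrays. Both turned under loess (-0.45 and -0.041) and with processed signals (-0.72 and -0.18).

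**Figure D4:**
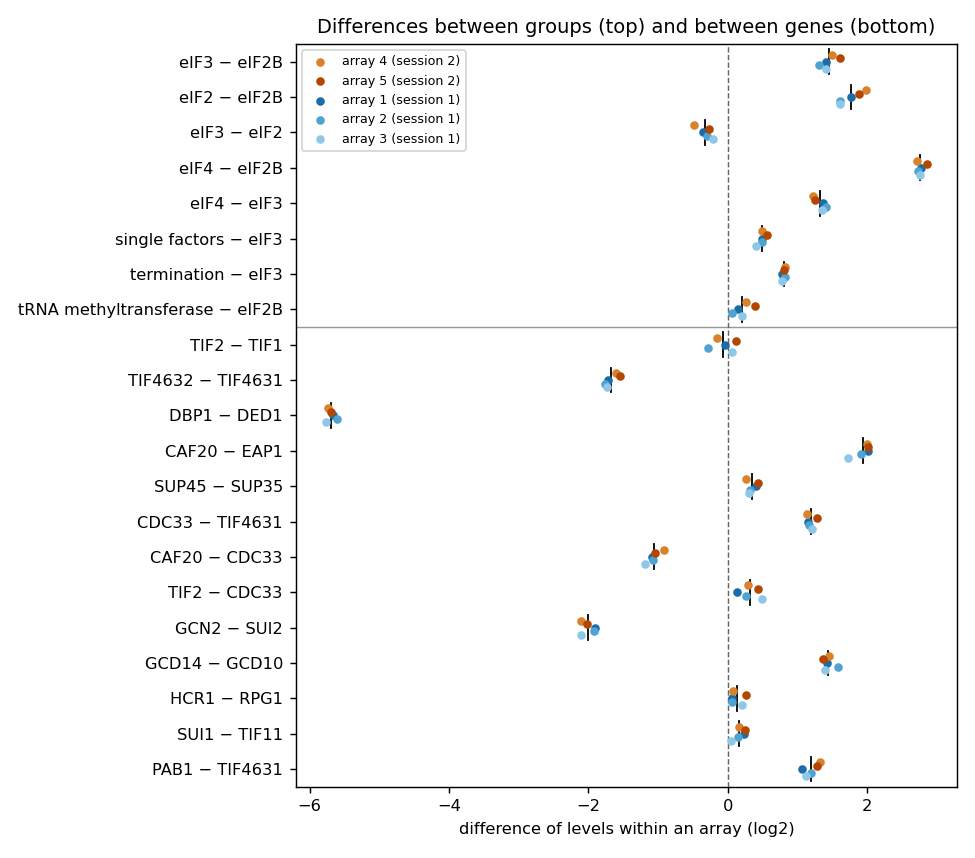
Differences of levels within an array (x axis, log2, the group or gene named first minus the one named second) for 8 comparisons of group medians and 13 of single genes, with 1 point per array and a bar at the mean. All 5 points lie on 1 side of 0 in 20 of the 21 comparisons, and only TIF2 minus TIF1 has points on both sides.

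Factors that act as single proteins had a median of 3.15 ± 0.06. TIF5 encodes eIF5, which triggers GTP hydrolysis by eIF2, and had 3.35, 3.31, 3.39, 3.34 and 3.28. SUI1 (eIF1), which guards start codon choice, had 3.21, 3.15, 3.10, 3.18 and 3.33. TIF11 (eIF1A), its partner on the small subunit, had 2.98, 3.002, 3.05, 3.02 and 3.08. SUI1 exceeded TIF11 on each array, by 0.16 ± 0.08 (1.12-fold), while in RNA signal alone the difference was -0.40. FUN12 (eIF5B), the GTPase of subunit joining, had 3.14, 3.04, 3.11, 3.09 and 3.19, which overlapped the range of SUI1. The median of these 4 genes exceeded that of eIF3 by 0.49 ± 0.05 (1.40-fold, 5 of 5 arrays), in the same direction under all alternatives run (0.16 to 0.53).

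Both release factor genes were above the 90th percentile of genes on every array, while their means were at the 75.8th (SUP45) and 81.0th (SUP35) with loess and SUP45 was at the 86.0th with processed signals. SUP45 (eRF1), which reads the stop codon, had levels of 3.66, 3.58, 3.63, 3.60 and 3.71. SUP35 (eRF3), its GTPase partner and the protein of the yeast prion [PSI+], had 3.26, 3.26, 3.32, 3.34 and 3.27. The ranges did not overlap, and SUP45 minus SUP35 was 0.35 ± 0.07 (1.27-fold, 5 of 5 arrays). That difference was -0.14 with loess and -0.20 with processed signals. The median of the pair, 3.46 ± 0.03, exceeded that of eIF3 by 0.80 ± 0.02 (1.74-fold, 5 of 5 arrays, exact sign-flip p = 0.0625, adjusted p = 0.0656), the smallest SD of the 21 differences. It was in the same direction under all alternatives run, from 0.32 to 0.84.

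The DEAD-box helicase genes DBP1 and DED1 lay farthest apart of the pairs compared, though not with loess or processed signals. DBP1 had levels of -2.43, -2.42, -2.45, -2.40 and -2.38 on arrays 1 to 5. DED1, whose product helps the ribosome scan structured leaders, had 3.23, 3.19, 3.32, 3.33 and 3.32. DBP1 is a paralogue that can stand in for DED1 when overproduced. The difference of DBP1 minus DED1 was -5.70 ± 0.06, which makes DBP1 51.8-fold lower (5 of 5 arrays, exact sign-flip p = 0.0625, adjusted p = 0.0656). DBP1 made up 1.89% ± 0.08 of the sum of both. Its RNA signal, a mean Cy3 of 382 ± 69.7, was the lowest of the 34 genes, while its genomic DNA signal of 14168 was above that of the median gene. The direction held under all alternatives run, but the size was -0.68 with loess and -1.81 with processed signals.

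GCD10 and GCD14 carry names from the genetic screen that also found eIF2B, and were once counted with the initiation factors. Their products together methylate an adenosine of the initiator tRNA. GCD14, the catalytic subunit, had 2.13, 2.15, 2.18, 2.15 and 2.14, and GCD10, its partner, had 0.70, 0.57, 0.79, 0.69 and 0.78. GCD14 was higher on every array, by 1.44 ± 0.08 (2.72-fold). Much of that distance lay in the genomic DNA channel, where GCD14 had the lowest mean Cy5 of all members, 6506, and GCD10 had 16836. In RNA signal alone the difference was 0.068. The median of the pair was 0.21 ± 0.12 above that of eIF2B on 5 of 5 arrays, and -0.29 in RNA signal alone.

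In the order of all 34 means, 16 of the 33 neighbouring pairs kept their order on all 5 arrays. The largest steps between neighbours were GCN2 over DBP1 by 2.44, GCD10 over GCN3 by 0.42 and GCD1 over GCD2 by 0.40. Among the 17 pairs that changed order on at least 1 array were TIF1 and TIF2, CDC33 and NIP1, SUP35 and DED1, HCR1 and TIF4631, and EAP1 and GCD7. Genes with such close levels were not told apart by 5 arrays.

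The levels also depended on the processing. With the ratios that the authors deposited, the 34 means differed from those above by at most 0.063, and their order had a Spearman's rho of 0.999. With RNA signal alone, rho was 0.913 and 33 members had a mean above the median gene. Loess within arrays, which removes any trend of the ratio with brightness, left a rho of 0.438 and 21 members above the median gene, at a median level of 0.17. Agilent's processed signals gave 25 members above the median gene and a median level of 0.52. Shares of all genes beside these counts of members are not given. TIF2 and TIF1, the highest genes here, were at -0.88 and -0.44 with loess, while NIP1 (1.40), TIF5 (1.48), SUI3 (1.66) and GCD14 (1.85) were the members highest above the median gene.

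**Figure D5:**
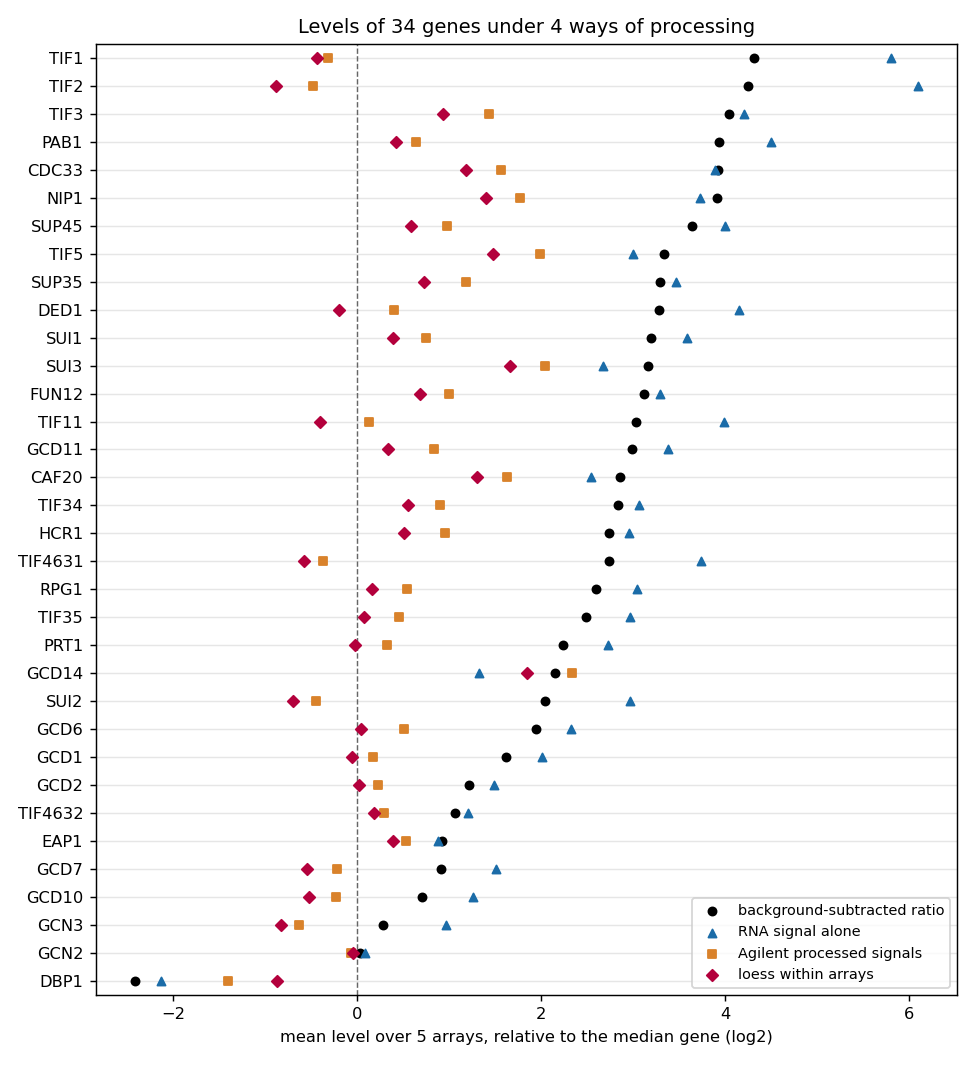
Mean level of each of the 34 genes over 5 arrays (x axis, log2 relative to the median gene) under 4 ways of processing, ordered by the background-subtracted ratio (black circles). The RNA signal alone (blue triangles) keeps the highest genes high, at 6.10 for TIF2 and 5.80 for TIF1, while loess (red diamonds) and processed signals (orange squares) bring the highest genes down, to -0.88 for TIF2 and -0.44 for TIF1 under loess.

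Scan session 2 (arrays 4 and 5, which share a slide) was compared with session 1 (arrays 1 to 3, on 2 slides) to see whether batches moved these genes. Of the 34 members, 0 were called by limma at an adjusted p of 0.05, where 2.64% of all genes were. At an unadjusted p under 0.05 there were 2, against 20.2% of all genes, and the sessions did not overlap for 6 members, against 38.9% of all genes. The differences ran from -0.17 to 0.10, with 17 members higher and 17 lower in session 2, and their median size was 0.046, against 0.076 for all genes. TIF3 averaged 3.94 in session 2 and 4.11 in session 1 (difference -0.17 ± 0.05 SE, limma adjusted p = 0.139), but the difference was positive with loess (0.30), median centring (0.075), normexp (0.060) and processed signals (0.27). GCD2 averaged 1.12 in session 2 and 1.29 in session 1 (difference -0.17 ± 0.05 SE, limma adjusted p = 0.143), and the difference was 0.0071 with loess and 0.0031 with processed signals. When spots not marked well above background were left out, 7 members were called, where 37.9% of 5814 genes were, and with slide as a random block 5 were, where 35.8% of all genes were. Session 2 and its slide cannot be told apart.

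Of 33 further genes tied to translation control, release, mRNA binding or organelle translation, 24 lay above the median gene on all 5 arrays (47.2% of all genes did), 18 above the 75th percentile (23.2%) and 5 below the median (47.5%). Their median level was 1.57. Between scan sessions 0 of them were called. HYP2, the main gene for eIF5A, was the highest at 5.33 ± 0.06, but with loess it was at -0.50 and with processed signals at -0.24. ANB1, its near-identical paralogue known as the form used without oxygen, was at -0.08 ± 0.12 and was picked out after its value was seen. GCN4, the transcription factor whose translation Gcn2 raises, had a level of 4.63 ± 0.11, but 0.74 with loess and 1.07 with processed signals. STM1, a ribosome-bound protein, was at 4.55 ± 0.15, but at 0.054 with loess and 0.30 with processed signals. The lowest were MRF1, the mitochondrial release factor, at -0.81 ± 0.10, and IFM1, the mitochondrial initiation factor, at -0.64 ± 0.10, which was at 0.84 with loess and 0.43 with processed signals. YIH1, an inhibitor of Gcn2 activation, was at -0.60 ± 0.07, and at 0.52 in RNA signal alone.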

How the data were processed

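The authors deposited 1 scanner file per array, written by Agilent Feature Extraction (version 10.1.1.1 in the header). The deposited intensity values are medians of spot and local background pixels, beside signals already corrected for background and dye by that program, and flags for spots (score values of 0 or 1, per the file headers). A value table, likewise deposited, holds 1 log2 ratio (Cy3 over Cy5) per probe and array, uncentred (column medians of -2.62, -2.89, -2.91, -3.01 and -2.57). Between 89.4% and 99.6% of its values matched ratios without background subtraction within 0.001.

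Here each channel's local background was subtracted, and the log2 ratio was averaged over the spots of a probe, without control spots and spots flagged as feature outliers. Quantile normalization between arrays used limma 3.58.1 (R 4.3.3), and values were centred on the median gene. A group's level is the median of its members on an array. Differences within an array were tested by an exact two-sided sign-flip test over the 32 sign patterns of 5 arrays, with Benjamini-Hochberg adjustment over 21 comparisons. The sessions' means were fitted with limma (lmFit, eBayes), with p-values adjusted over all 6256 genes. Arrays carry no counts, so their number limits the precision. Scripts were tested on simulated data.

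The members and lists were chosen with earlier results of these data known. Named genes were all 34 members, the 3 highest and 3 lowest of the further list and any gene called between sessions. The files hold 1 probe per gene, although the methods describe several. For the array's design, a genome build was not given in the sources used here. All 34 members matched the RefSeq table of assembly R64 by systematic name. Alternatives changed the background, the spots kept, the normalization, the denominator and the arrays.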

Additional observations from a re-analysis of the deposited data

Results flagged for a closer look

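Over the 34 members and the other sets of 5 values tested here, 58 in all, Dixon's test picked out 0 with an array far from the other 4, where chance picks out about 1 in 20.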

How the results depend on the processing

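All 19 alternatives could be run, 18 of them for the comparisons of levels. Of the 21 comparisons, 9 kept their direction under all of them, and 20 of 378 values reversed. From RNA signal alone (Cy3 without genomic DNA), the reversed differences were eIF3 minus eIF2 (0.054), tRNA methyltransferase minus eIF2B (-0.29), TIF2 minus TIF1 (0.30), HCR1 minus RPG1 (-0.087) and SUI1 minus TIF11 (-0.40). With loess they were eIF4 minus eIF2B (-0.041), eIF4 minus eIF3 (-0.45), TIF4632 minus TIF4631 (0.76), SUP45 minus SUP35 (-0.14), CAF20 minus CDC33 (0.12), TIF2 minus CDC33 (-2.07) and GCN2 minus SUI2 (0.65). With processed signals the same 7 comparisons gave -0.18, -0.72, 0.66, -0.20, 0.075, -2.03 and 0.38, and with normexp TIF2 minus CDC33 was -0.88. The normexp fit put the Cy5 background at 7160 to 8188, where negative control spots averaged 6.56 to 69.7. That fit lay above the mean Cy5 of GCD14 (6506), so normexp counted genomic DNA signal as background.

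Members whose mean lay below the median gene under loess, against above it here, were GCN2 (-0.04, a shift smaller than its SD of 0.10 here) and 11 others: TIF1 (-0.44), TIF2 (-0.88), DED1 (-0.19), TIF11 (-0.40), TIF4631 (-0.58), PRT1 (-0.025), SUI2 (-0.70), GCD1 (-0.056), GCD7 (-0.55), GCD10 (-0.52) and GCN3 (-0.82). With processed signals they were GCN2 (-0.06) and 7 others: TIF1 (-0.31), TIF2 (-0.48), TIF4631 (-0.37), SUI2 (-0.44), GCD7 (-0.22), GCD10 (-0.23) and GCN3 (-0.63), and with normexp GCN3 (-0.090). Outside the members, HYP2 (-0.50 and -0.24) and IFM1 (0.84 and 0.43) reversed with loess and processed signals, and YIH1 (0.52) in RNA signal alone. Under loess 18 members were above the median gene on all arrays and 7 above the 75th percentile, and with processed signals 13 were above the 75th percentile. The shares of all genes under these settings are not given, so these counts are no result about the members.

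The distances within eIF2, eIF2B and eIF3 were 0.71, 1.36 and 1.002 from RNA signal alone, 2.36, 0.90 and 1.42 with loess, 1.91, 1.89 and 2.02 with normexp, and 2.48, 1.14 and 1.45 with processed signals. Leaving out each array in turn turned none of the 21 differences.

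The count of all genes called between scan sessions, 165 here, was 0 from RNA signal alone, 8 with loess, 327 with median centring, 99 with medians over spots, 3 with negative controls subtracted, 1 with normexp, 2205 with only spots well above background, 41 with outlier spots kept and 2242 with slide as a random block. It was 5 to 174 with 1 array left out. TIF3 reversed with loess (0.30), median centring (0.075), normexp (0.060) and processed signals (0.27), and GCD2 with loess (0.0071) and processed signals (0.0031). Leaving out spots flagged as background outliers too was an alternative chosen after seeing the data. Where a cause is not shown by how an alternative was built, the cause was not tested. No paired analysis was possible because there is 1 group.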
